A study of Mus with 2 samples.

Results

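Genes that encode transcription factors or chromatin regulators of blood stem cells were followed, and they were chosen by name: Hlf, Mecom, Meis1, Hoxa9, Hoxb5, Gfi1, Erg, Runx1 and Mllt3. All 9 members had 1 row each among the 27998 genes of the count tables. They were compared across stem-like, platelet-biased-like, erythroid-like and neutrophil-like cells of 2 single-cell libraries. One library was made from Mx1-Cre Id2+/+ mice and the other from Mx1-Cre mice in which floxed Id2 had been deleted; they are written here as Id2+/+ and Id2-deleted. Mx1-Cre is switched on by interferon, so both groups were given pIpC, an interferon inducer before the cells were taken. Floxed Id2 is lost only in cells in which Mx1-Cre was active. Each library pooled marrow from 5 mice aged 8 to 12 weeks, from which 1000 LSK FLT3- CD150+ CD48- cells, the surface phenotype of hematopoietic stem cells (HSCs), were sorted. One clause of the labels of the Id2-deleted library names Id2+/+ bones as its source, whereas its title and genotype field both give the deleted genotype, which was used.

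Hematopoietic stem cells stay quiescent and multipotent through a small network of DNA-binding factors. HOX proteins such as HOXA9 bind DNA together with TALE cofactors such as MEIS1, while the ETS factor ERG and the RUNT-domain factor RUNX1 occupy many of the same enhancers in stem cells. HLF and MECOM are largely restricted to the most primitive cells, and most members of the network are turned down as cells commit to a lineage; GFI1, which restrains stem cell proliferation, is also a central repressor in the granulocyte lineage.

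The genes lie on 6 chromosomes (RefSeq, GRCm38.p6). Hlf (ENSMUSG00000003949), which encodes a PAR bZIP factor, is at chr11:90336535-90390917. Mecom (ENSMUSG00000027684), a zinc finger factor of the PRDM family, is at chr3:29951296-30509759. Meis1 (ENSMUSG00000020160) is at chr11:18880428-19019651, Hoxa9 (ENSMUSG00000038227) at chr6:52223097-52227370 and Hoxb5 (ENSMUSG00000038700), also a HOX gene, at chr11:96303512-96306121. Gfi1 (ENSMUSG00000029275) is at chr5:107716655-107725805, Erg (ENSMUSG00000040732) at chr16:95359169-95586600 and Runx1 (ENSMUSG00000022952) at chr16:92601466-92826074. Mllt3 (ENSMUSG00000028496), which encodes AF9, a reader of acylated histones that recruits elongation factors and DOT1L, is at chr4:87769925-88033407. All 9 are annotated as protein coding. Mecom, Meis1 and Hoxb5 overlap the annotated noncoding genes Mecomos, Gm16141 and Hoxb5os, which have rows of their own, and the sources used here do not state whether strand was used in counting.

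The clusters were named from marker genes that did not include the 9 members, which were also left out of the clustering. The stem-like class was a remainder that joined the HSC-like and activated HSC-like clusters with others that the markers left unnamed. The unnamed clusters in it gave 39 of its 215 Id2+/+ cells and 215 of its 348 Id2-deleted cells. After filtering, 333 Id2+/+ and 625 Id2-deleted cells remained, and 1 called barcode was present in both libraries. The stem-like class held 215 and 348 cells, platelet-biased-like 40 and 40, erythroid-like 44 and 169, and neutrophil-like 27 and 38. The stem-like cells of the libraries fell largely into separate clusters, and a cluster from 1 library may be that library and not a cell type. HSC-like cells were 155 of 157 in a cluster led by the immediate early genes Fos, Dusp1 and Jun in Id2+/+, and all 79 in a cluster led by Cd74, H2-Aa and interferon-induced genes in Id2-deleted. An activated HSC-like cluster led by Ccnb2 and other mitotic genes held 19 and 54 cells. The other stem-like cells were unnamed: a cluster of 137 Id2-deleted cells led by Xist and Myl10 (the Myl10 cluster), which also had Cd48 among its 10 leading genes, a Dntt cluster of 30 Id2+/+ cells, and a Vpreb3 cluster of 9 and 78 cells. The Dntt and Vpreb3 clusters were led by genes of other lineages. Among the 10 leading genes of the Dntt cluster were Dntt, Ly6d, Bcl11b, Lck, Tcf7 and Satb1, which act in lymphoid cells, and the mast cell gene Cpa3. Those of the Vpreb3 cluster included the B lineage genes Vpreb3, Vpreb1 and Igll1 and the myeloid genes Lgals3, Ly6c2, Tyrobp and F13a1. Neither had a leading gene from the HSC or activated HSC markers, and nor did the Fos-led cluster of 155 Id2+/+ HSC-like cells. The Dntt and Vpreb3 clusters stayed in the stem-like class in each ratio between classes. Values without them are given beside the comparison of the libraries. A further cycling cluster with platelet markers, 7 Id2+/+ cells (2.10%) and 30 Id2-deleted cells (4.80%), was kept out of all classes. The 13 HSC markers summed to 2215 and 1894 CPM (UMIs of a gene or list per 1000000 UMIs of the class) in stem-like cells, 575 and 474 in platelet-biased-like, 184 and 130 in erythroid-like and 160 and 95.4 in neutrophil-like cells, and all 13 were found in the stem-like class. Of the genes behind the sort, Slamf1, which encodes CD150, had 2.14 and 1.40 CPM in erythroid-like cells and 3 and 0 UMIs in neutrophil-like cells, against 25.7 and 31.9 CPM in stem-like cells. Cd48, whose product the sort selected against, was 73.6 and 81.2 CPM in neutrophil-like cells and 10.3 and 25.7 in stem-like cells. Flt3, whose product the sort also selected against, ran the other way, at 20.5 and 12.4 CPM in stem-like cells and 0 UMIs in erythroid-like and neutrophil-like cells of both libraries.

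The deleted gene, Id2, had 20 UMIs in Id2+/+ stem-like cells, 2 in platelet-biased-like, 1 in erythroid-like and 29 in neutrophil-like cells. It had 0 UMIs in each of these classes of the Id2-deleted library, so its level in stem-like cells was at least 14.5-fold lower there (limit of 3 UMIs per class). The paper places 1 loxP site before exon 1 and another between exons 2 and 3. The deleted part thus holds the start of the gene, while the 3' end that the assay reads lies outside it. How the deletion changes the 3' count was not tested, and the count alone does not check the deletion.

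Levels are given as CPM, with 95% Poisson intervals in brackets. The difference between genotypes rests on 1 library each and has no replicate check. Differences between classes were measured in each of the 2 libraries, which differ in genotype. No test was run on either, and the intervals cover counting error only. Levels were compared between classes or libraries for the same gene, not between genes.

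Hlf marked the stem-like class. In Id2+/+ it measured 178 CPM (interval from 157) in stem-like cells, 18.8 in platelet-biased-like, 4.29 in erythroid-like and 4.33 in neutrophil-like cells. In Id2-deleted the same order began at 114 CPM (103 to 126) and went on with 16.4, 2.80 and 5.70. The stem-like value was above each of the others in both libraries, and the erythroid-like and neutrophil-like intervals overlapped. Relative to stem-like cells the platelet-biased-like level was 0.106 (interval from 0.0479 to 0.204) in Id2+/+ and 0.144 (from 0.0713 to 0.260) in Id2-deleted.

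Mecom, whose product EVI1 is required for long-term stem cells, followed the same order at 62.3 CPM (50.5 to 76.0) in Id2+/+ and 51.4 (44.0 to 59.6) in Id2-deleted stem-like cells. The other classes held between 1 and 6 Mecom UMIs each. Their ratios to stem-like cells ran from 0.0344 to 0.0672 in Id2+/+ and from 0.0182 to 0.175 in Id2-deleted. In Id2+/+ the intervals of these classes overlapped. In Id2-deleted the platelet-biased-like level, 8.97 CPM (3.29 to 19.5), was above the erythroid-like level, 0.934 (0.343 to 2.03), and overlapped the neutrophil-like one.

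**Figure D1:**
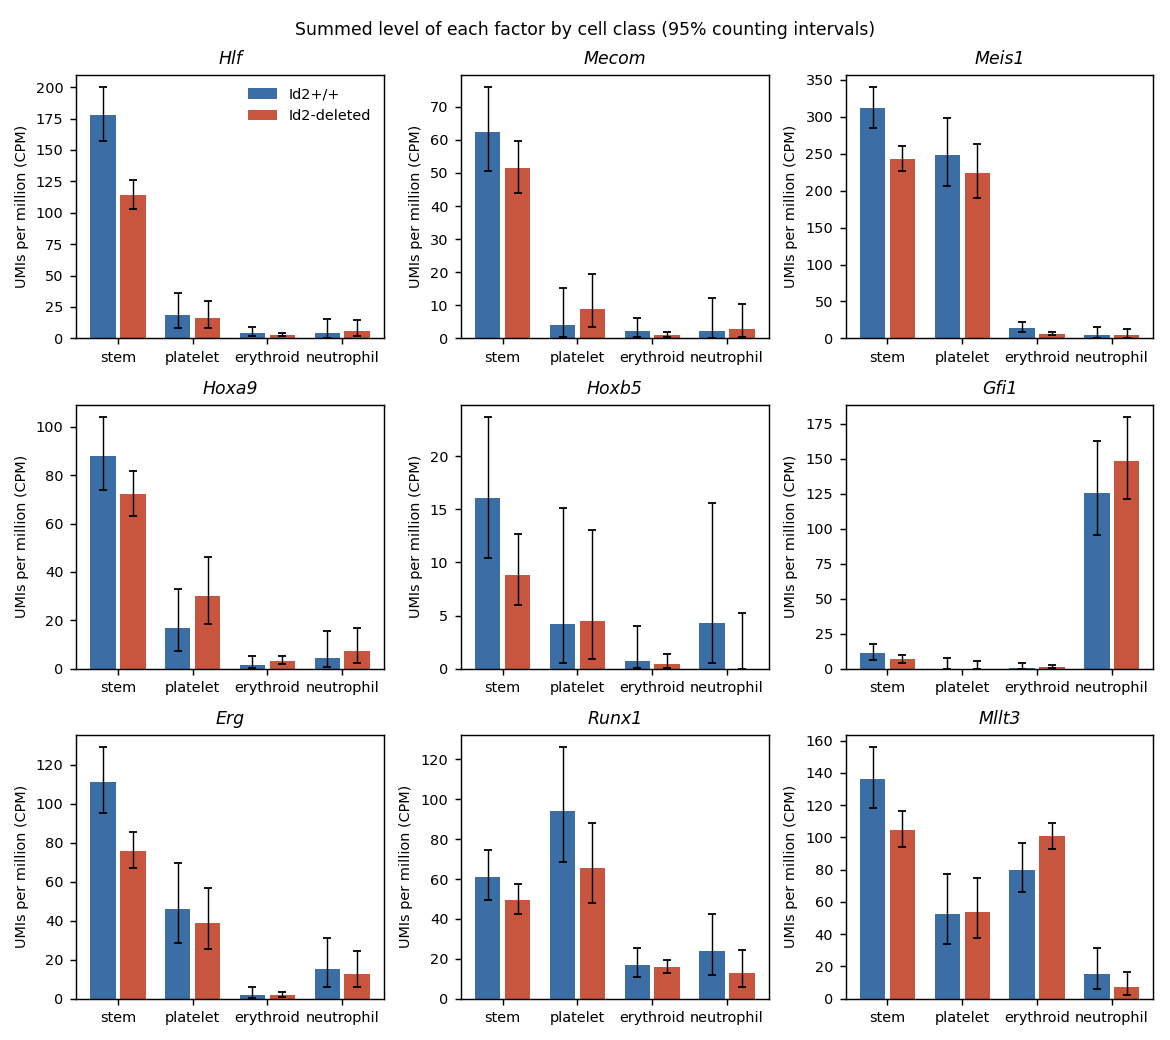
Bars give the level of each gene (CPM, linear axis from 0) in 4 cell classes of the Id2+/+ (blue) and Id2-deleted (red) libraries, with 95% Poisson intervals. Hlf falls from 178 and 114 CPM in stem-like cells to under 20 in the other classes, Meis1 stays above 220 in platelet-biased-like cells, Mllt3 is 80.0 and 101 in erythroid-like cells, and Gfi1 peaks in neutrophil-like cells.

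The HOX genes and their cofactor did not move together across the classes. Meis1 was 311 CPM (284 to 340) in Id2+/+ stem-like cells and 249 (206 to 298) in platelet-biased-like cells; the corresponding values in Id2-deleted were 243 (227 to 260) and 224 (190 to 263). The ratio of platelet-biased-like to stem-like cells had an interval from 0.649 to 0.979, which left out 1, in Id2+/+, and was 0.923 (from 0.770 to 1.10) in Id2-deleted, with one that held it. In erythroid-like cells Meis1 was 14.3 and 5.76 CPM, and in neutrophil-like cells it was represented by 2 and 3 UMIs. Hoxa9, by contrast, dropped from 87.9 CPM (73.8 to 104) to 16.7 (7.23 to 33.0) between stem-like and platelet-biased-like cells of Id2+/+, and from 72.0 (63.3 to 81.7) to 29.9 (18.3 to 46.2) in Id2-deleted. Hoxa9 was at 1.43 and 3.27 CPM in erythroid-like and 4.33 and 7.12 in neutrophil-like cells. Hoxb5, used in other studies as a mark of long-term stem cells, was sparse, with 25 and 30 UMIs in stem-like cells (16.0 and 8.86 CPM) and 0 to 3 in every other class and library. Its ratio of platelet-biased-like to stem-like cells, 0.261 and 0.506, had an interval that held 1 in each library.

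Erg and Runx1, which are partners on stem cell enhancers, also differed. Erg fell from 111 CPM (95.1 to 129) in Id2+/+ stem-like cells to 46.0 (28.8 to 69.7) in platelet-biased-like, 15.2 in neutrophil-like and 2.14 in erythroid-like cells. In Id2-deleted the order was the same, at 75.9 (66.9 to 85.7), 38.9 (25.4 to 57.0), 12.8 and 2.02 CPM. Runx1 was 61.0 CPM (49.3 to 74.5) in Id2+/+ stem-like cells and 94.2 (68.7 to 126) in platelet-biased-like cells, a ratio of 1.54 with an interval from 1.06 to 2.22. In Id2-deleted the corresponding levels were 49.6 (42.4 to 57.7) and 65.8 (47.8 to 88.3), a ratio of 1.33 with an interval from 0.929 to 1.86. Which library passed 1.5-fold depended on the cells it was set against: over the HSC-like clusters alone the ratio was 1.44 (from 0.968 to 2.14) in Id2+/+ and 1.58 (from 0.951 to 2.67) in Id2-deleted, and both intervals held 1. When the retained cells were clustered again only 3 Id2+/+ cells were left in the class and the Id2+/+ ratio was 0.399 to 0.402. Runx1 in erythroid-like cells was 17.1 and 15.9 CPM and in neutrophil-like cells 23.8 and 12.8 CPM.

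Mllt3 was the member that stayed high in erythroid-like cells. It measured 136 CPM (118 to 156) in Id2+/+ stem-like cells, 80.0 (65.9 to 96.3) in erythroid-like, 52.3 (33.9 to 77.2) in platelet-biased-like and 15.2 in neutrophil-like cells. In Id2-deleted, stem-like and erythroid-like cells were level at 105 (94.2 to 116) and 101 (93.0 to 109), followed by 53.8 in platelet-biased-like and 7.12 in neutrophil-like cells. The erythroid-like to stem-like ratio was 0.588 (from 0.463 to 0.743) in Id2+/+ and 0.960 (from 0.842 to 1.10) in Id2-deleted. The direction in Id2-deleted turned in 3 of 19 alternative settings, under TMM scaling (1.21), DESeq2 size factors (1.14) and with Xist cells only (1.01). TMM raised all erythroid-like to stem-like log2 ratios by 0.38 in Id2+/+ and 0.34 in Id2-deleted. Against the HSC-like clusters alone the ratio was 0.488 in Id2+/+ and 0.570 in Id2-deleted, so whether Mllt3 was level or lower in Id2-deleted depended on the stem-like cells it was set against. AF9 is known for a part in erythroid and megakaryocytic programmes as well as in stem cells.

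In neutrophil-like cells Gfi1 ran against all other members. It was 126 CPM (95.4 to 162) in Id2+/+ and 148 (121 to 179) in Id2-deleted neutrophil-like cells, against 10.9 (6.36 to 17.5) and 6.50 (4.07 to 9.83) in stem-like cells. The ratios were 11.5 (from 6.61 to 21.1) and 22.8 (from 14.3 to 38.0). They moved with the cells compared: against HSC-like cells alone they were 9.36 and 11.6, with Xist cells only 22.5 and 31.3, and with Y-linked cells only 11.7 and 84.2, the last from 1 stem-like UMI. No Gfi1 UMI was found in platelet-biased-like cells of either library, which allows up to 6.28 and 4.49 CPM (3 UMIs), and 1 and 7 UMIs were found in erythroid-like cells. Its paralog Gfi1b, which acts in erythroid cells and megakaryocytes, was 1.87 and 1.54 times as high in platelet-biased-like as in stem-like cells.

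Counted against the background of all genes, 6 of 8 members with enough UMIs were at least 1.5-fold lower in platelet-biased-like than in stem-like cells in both libraries (Hlf, Mecom, Hoxa9, Hoxb5, Erg and Mllt3), where 12.6% of 8232 genes were; none was higher in both, against 4.14% of genes. In erythroid-like cells 7 of 8 were lower, against 34.2% of 8833 genes, and none was higher, against 14.9%; Mllt3 was the exception. In neutrophil-like cells 8 of 9 were lower, against 36.7% of 8110 genes, and Gfi1 alone was higher, against 7.74%. Depth moved with these classes: the median was 33770 and 38755 UMIs per erythroid-like cell, 17626 and 18348 per neutrophil-like cell and 6713 and 8995 per stem-like cell, and its part in the counts was not tested. Scaling by TMM raised the neutrophil-like to stem-like log2 ratios of all genes by 0.39 and 0.44, and the counts of 8 lower and 1 higher were unchanged under it.

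**Figure D2:**
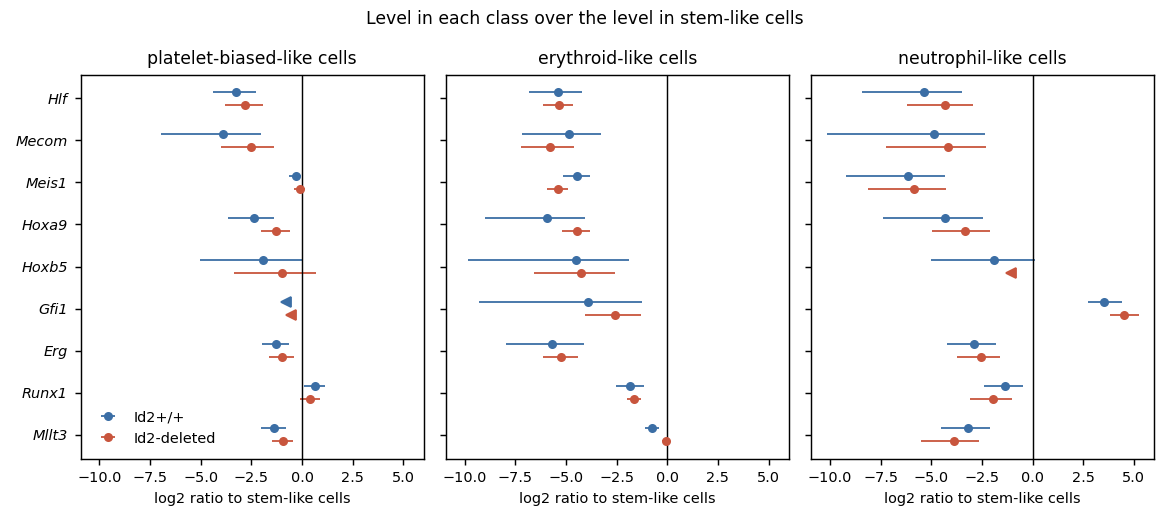
Points give the log2 ratio of each gene in platelet-biased-like, erythroid-like and neutrophil-like cells over stem-like cells of the same library, with 95% counting intervals; a triangle is the upper limit for a class with 0 UMIs (3 UMIs). In platelet-biased-like cells Meis1 lies just below 0 and Runx1 above it (0.63 in Id2+/+ and 0.41 in Id2-deleted), Mllt3 is the highest member in erythroid-like cells, and Gfi1 is the only member above 0 in neutrophil-like cells.

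Free RNA from broken cells reaches every droplet, so the members were also counted in barcodes of 1 to 100 UMIs. There Hlf was 38.4 CPM in Id2+/+ and 18.2 in Id2-deleted, Meis1 131 and 60.3, Mllt3 81.5 and 86.3, and Gfi1 15.3 and 6.76. Elane, a neutrophil granule gene, served as a gauge of carry-over into cells: it was 213 and 78.2 CPM in stem-like cells against 21550 and 25470 in neutrophil-like cells. After the empty-droplet profile was subtracted, Hlf in erythroid-like cells went from 4.29 to 3.43 CPM in Id2+/+ and from 2.80 to 2.57 in Id2-deleted, and Mllt3 remained at 80.0 and 101. The stem-like levels of Hlf became 195 and 120 CPM. The low Meis1 level of Id2+/+ neutrophil-like cells, 2 UMIs, fell to 0.

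Shares of cells with a UMI were taken after each cell was thinned to 6200 UMIs, which left out 83 Id2+/+ and 2 Id2-deleted stem-like cells as too shallow. A UMI of Hlf was found in 53.8% of 132 Id2+/+ stem-like cells (44.9 to 62.5, Clopper-Pearson) and 49.7% of 346 Id2-deleted ones (44.3 to 55.1). After the same thinning, Hlf was found in 7.14% and 1.79% of erythroid-like cells, which serve as the background for a gene these cells should lack; before thinning the stem-like shares were 63.3% and 58.3% and the erythroid-like ones 11.4% and 10.7%. Meis1 was the most often found, in 83.3% and 78.9% of stem-like and 71.1% and 70.0% of platelet-biased-like cells. Hoxa9 was found in 43.2% (34.6 to 52.1) of Id2+/+ and 32.7% (27.7 to 37.9) of Id2-deleted stem-like cells, and Mllt3 in 43.2% and 45.1%. Erg was found in 43.9% and 37.6%, Mecom in 29.5% and 26.3%, and Runx1 in 26.5% and 26.9%. Hoxb5 was found in 7.58% and 4.91%, and Gfi1 in 2.27% and 3.76%. The erythroid-like shares were 0 of 42 cells in Id2+/+ for both genes, with a Clopper-Pearson upper limit of 8.41%, and 0.595% for Hoxb5 and 1.19% for Gfi1 in Id2-deleted. These intervals overlapped those of stem-like cells, which does not show that the shares are alike. Over all UMIs of Id2-deleted, erythroid-like cells had 0.0527 times the Hoxb5 level of stem-like cells (from 0.0103 to 0.170) and 0.168 times that of Gfi1 (from 0.0605 to 0.407). In neutrophil-like cells Gfi1 was found in 44.4% (25.5 to 64.7) and 55.3% (38.3 to 71.4).

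At that depth a stem-like cell held a median of 3 members in both libraries, a platelet-biased-like cell 2, and an erythroid-like or neutrophil-like cell 1. At least 3 members were found in 67.4% of Id2+/+ and 65.6% of Id2-deleted stem-like cells, in 34.2% and 27.5% of platelet-biased-like cells, in 0% and 0.595% of erythroid-like cells and in no neutrophil-like cell. Mllt3 was the member found most often in erythroid-like cells, in 38.1% and 49.4%, followed by Runx1 in 14.3% and 7.14%. The most members found in 1 cell were 7 in Id2+/+ and 8 in Id2-deleted. Within the stem-like class, the shares of cells with another member were set side by side for cells with and without Hlf, and the intervals overlapped for all other members in both libraries. Meis1 was found in 87.3% of Id2+/+ cells with Hlf and 78.7% of those without, and in 77.9% and 79.9% in Id2-deleted. The widest gap was that of Erg in Id2+/+, 52.1% (39.9 to 64.1) with Hlf and 34.4% (22.7 to 47.7) without; in Id2-deleted the Erg shares were 41.9% and 33.3%.

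**Figure D3:**
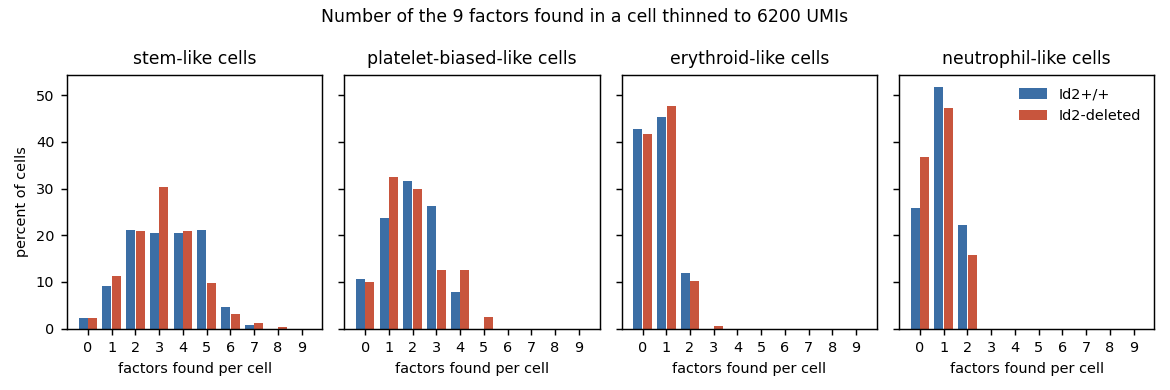
Bars give the percent of cells of each class in which 0 to 9 of the members were found after thinning to 6200 UMIs per cell, for Id2+/+ (blue) and Id2-deleted (red). Stem-like cells centre on 3 members, platelet-biased-like cells on 2, and erythroid-like and neutrophil-like cells on 0 or 1.

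The second comparison was between the libraries within the stem-like class. The ratio was below 1 for all 9 members, as for 5681 of 10005 genes, with a median log2 ratio of -0.38 against -0.06 over those genes. The pooled class mixes clusters differently in the libraries: HSC-like cells were 157 of 215 Id2+/+ and 79 of 348 Id2-deleted stem-like cells. Over HSC-like, activated HSC-like and other stem-like clusters in turn, Mecom was 1.04, 1.27 (3 and 12 UMIs) and 1.17. Those intervals held 1. Hlf (0.905, 0.417 and 0.709) and Meis1 (0.806, 0.707 and 0.930) were below 1 in each. The thinned shares of cells were lower in Id2-deleted for 6 of the members and slightly higher for Mllt3, Runx1 and Gfi1, with intervals that overlapped. Thinning left out 83 Id2+/+ cells, 73 of them HSC-like, and 2 Id2-deleted cells. Before thinning, with depth unequal, Mecom (33.0% and 35.3%), Meis1 (83.3% and 85.9%) and Hoxa9 (44.2% and 47.4%) turned higher in Id2-deleted. Gfi1 (6.05% and 4.89%) turned lower. By the ratio, only 3 of the 9 members were at least 1.5-fold lower, as were 13.3% of genes, and none was at least 1.5-fold higher, against 4.87%. These were Hlf, at 178 CPM in Id2+/+ and 114 in Id2-deleted (ratio 0.643, interval from 0.549 to 0.753), Hoxb5 at 16.0 and 8.86 (0.552, from 0.314 to 0.979) and Gfi1 at 10.9 and 6.50 (0.595, from 0.302 to 1.19). The Gfi1 interval held 1. Among the members under 1.5-fold, Meis1 (0.781), Erg (0.683) and Mllt3 (0.770) had intervals that left out 1, whereas Mecom (0.825), Hoxa9 (0.819) and Runx1 (0.813) did not. TMM scaling raised all log2 ratios of this comparison by 0.11 and left all 9 below 0, but the Hlf ratio then fell short of 1.5-fold (0.695), as it did with DESeq2 size factors (0.681). Hlf was short of 1.5-fold in 13 of 19 alternative settings, and Hoxb5 and Gfi1 each in 2 of the 17 that gave them a value. The share of UMIs in stem-like cells estimated as free RNA was 10.8% in Id2+/+ and 5.88% in Id2-deleted, and its part in the ratios was not tested apart from the subtraction above.

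These ratios moved with which cells were counted as stem-like. Without the Dntt and Vpreb3 clusters (176 and 270 cells left), the Hlf ratio was 0.719 (0.605 to 0.856), that of Erg 0.668, of Runx1 0.709 and of Mllt3 0.819, and only Hoxb5 (0.511) and Gfi1 (0.589) still passed 1.5-fold. The HSC-like clusters held 157 cells (47.1% of Id2+/+ cells) and 79 cells (12.6% of Id2-deleted cells). They were almost wholly separate between the libraries, and the Myl10 cluster of 137 Id2-deleted cells was not among them. In these clusters alone, Hlf was 184 CPM (159 to 212) in Id2+/+ and 167 (136 to 202) in Id2-deleted, a ratio of 0.905 (from 0.706 to 1.16). Mecom was 75.7 and 78.5 CPM there and Mllt3 164 and 176, both slightly higher in Id2-deleted with intervals that held 1. Meis1 (324 and 261) and Erg (133 and 97.8) remained lower with intervals that left out 1, at ratios of 0.806 and 0.734. Runx1 (65.2 and 41.7; 0.639) and Hoxb5 (22.1 and 12.8; 0.581) were past 1.5-fold with intervals that held 1 (0.390 to 1.02, and 0.225 to 1.35 from 23 and 8 UMIs), against 14.5% of 7724 genes lower and 6.42% higher. In the activated HSC-like cluster (19 and 54 cells), Hlf was 193 CPM (132 to 273) in Id2+/+ and 80.7 (58.2 to 109) in Id2-deleted, a ratio of 0.417 (from 0.257 to 0.683), and was the 1 member of 6 past 1.5-fold lower, where 12.9% of 4617 genes were; 14.3% were higher. Meis1 (351 and 248 CPM, 0.707) was the other member there with an interval that left out 1. Runx1 (0.838) was below 1, and Hoxa9 (1.49), Erg (1.36) and Mllt3 (1.17) were above it, all with intervals that held 1. The median log2 ratio of the 6 members in this cluster was -0.018. This class was the same cluster in both libraries.

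**Figure D4:**
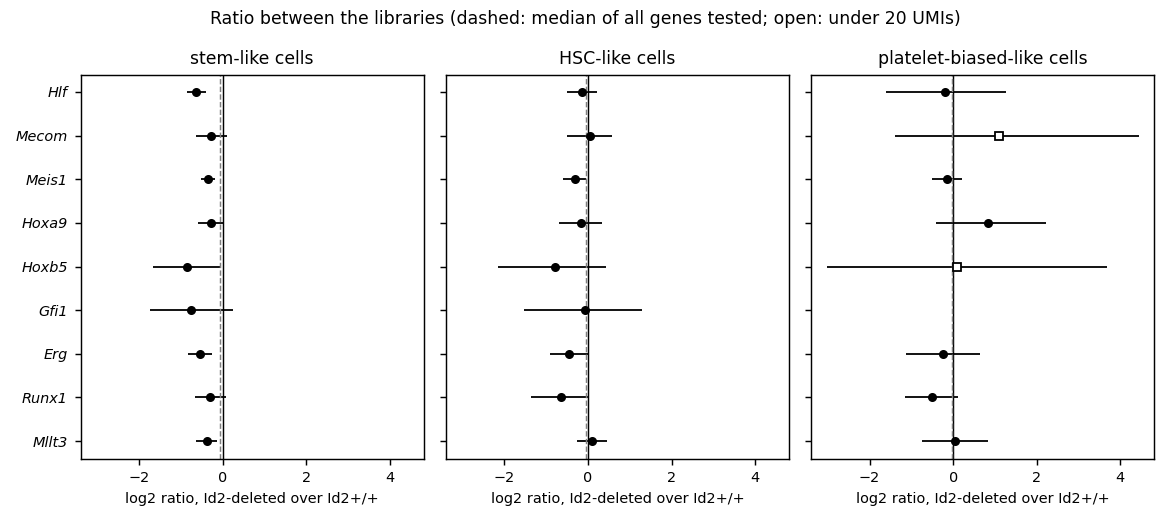
Points give the log2 ratio of Id2-deleted over Id2+/+ for each gene in stem-like, HSC-like and platelet-biased-like cells, with 95% counting intervals; open squares have under 20 UMIs, and the dashed line is the median of all genes tested. All 9 members lie below 0 in stem-like cells, against 5681 of 10005 genes, and 7 of 9 in HSC-like cells, against 4172 of 7724 genes.

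The members also varied among the stem-like clusters of 1 library. In Id2-deleted, Hlf was 167 CPM in the Cd74 cluster, 138 (119 to 160) in the Myl10 cluster, 80.7 in the Ccnb2 cluster and 63.6 (48.4 to 82.1) in the Vpreb3 cluster. Mllt3 took the same path, at 176, 119, 63.4 and 59.3 CPM, and Mecom was 78.5, 61.6, 23.1 and 34.5. Meis1 held a narrow range over these 4 clusters, 236 to 261 CPM, and Runx1 was 41.7, 44.9, 55.7 and 58.2 with overlapping intervals. In Id2+/+, activated HSC-like cells had 0.239 times the Mecom level of HSC-like cells (from 0.0484 to 0.726) and 0.332 times that of Mllt3 (from 0.149 to 0.645), while Hlf was level at a ratio of 1.05 (from 0.699 to 1.53). In Id2-deleted the corresponding ratios were 0.294 for Mecom, 0.360 for Mllt3 and 0.484 (from 0.330 to 0.699) for Hlf. Erg was 0.499 (from 0.243 to 0.921) in Id2+/+ and 0.924 (from 0.618 to 1.37) in Id2-deleted. Mecom and Mllt3 were therefore lower in the mitotic cluster in both libraries, and Hlf past 1.5-fold in Id2-deleted only; the difference between the libraries was not tested. The unnamed cycling cluster with platelet markers had 12.2 CPM of Hlf, 9.17 of Hoxa9 and 174 (144 to 209) of Meis1 in its 30 Id2-deleted cells. Its 7 Id2+/+ cells gave 51.2 CPM of Hlf (16.6 to 120) and 82.0 of Hoxa9 (35.4 to 162), from 5 and 8 UMIs.

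**Figure D5:**
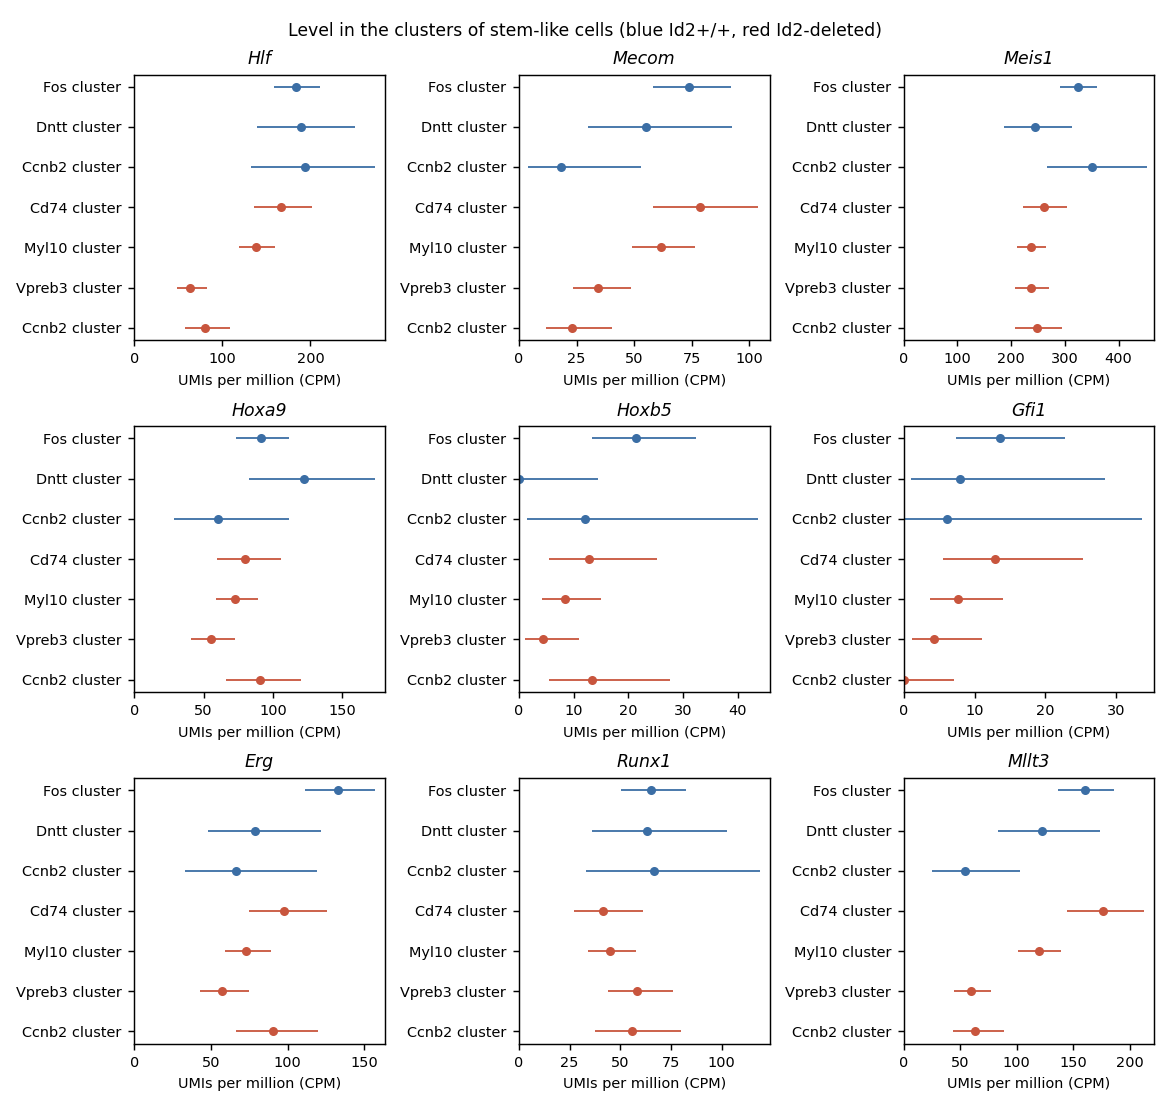
Points give the level (CPM, axis from 0) of each gene in the clusters of stem-like cells, named by a leading gene, in Id2+/+ (blue) and Id2-deleted (red), with 95% Poisson intervals; the 2 and 9 Id2+/+ cells of the Cd74 and Vpreb3 clusters are not drawn. Hlf, Mecom and Mllt3 are lower in the Vpreb3 and Ccnb2 clusters of Id2-deleted than in its Cd74 cluster, while Meis1 stays between 236 and 261 CPM there.

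In the other classes few members could be compared between libraries. In platelet-biased-like cells 6 of 9 had enough UMIs; Hoxa9 alone passed 1.5-fold, higher in Id2-deleted at 16.7 and 29.9 CPM (ratio 1.79, from 0.754 to 4.69), against 7.75% of 5989 genes higher and 13.5% lower. That ratio fell below 1 in 9 of the 17 alternative settings with enough UMIs. Erythroid-like cells came from partly separate clusters in the libraries. A cluster with no Id2-deleted cell held 27 of the 44 Id2+/+ cells. Another with no Id2+/+ cell held 57 of the 169 Id2-deleted cells. The part of these clusters in the ratios was not tested. In erythroid-like cells Meis1 had a ratio of 0.403 (from 0.228 to 0.733), with an interval that left out 1. Hlf had a ratio of 0.654 (from 0.249 to 2.01, with 6 UMIs in Id2+/+ and 18 in Id2-deleted) and Hoxa9 of 2.29 (from 0.559 to 20.1, with 2 and 21 UMIs), both past 1.5-fold with intervals that held 1. Of 8796 genes 10.9% were lower and 6.48% higher. Mllt3 was higher there at a ratio of 1.26 (from 1.03 to 1.55), under the fold. In neutrophil-like cells Gfi1 had a ratio of 1.18 (from 0.848 to 1.66), which was 1.74 among Xist cells and 0.632 among Y-linked cells, and Runx1 was past 1.5-fold at 0.538 (from 0.197 to 1.43, with 11 and 9 UMIs) with an interval that held 1, against 12.7% of 5039 genes lower and 8.49% higher.

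Cells with Xist, the RNA of the inactive X chromosome, and cells with Y-linked transcripts were both present in each library, in unequal shares. Cells with Xist and no Y-linked UMI were 27.4% of stem-like cells in Id2+/+ and 56.9% in Id2-deleted, and cells with Y-linked UMIs and no Xist were 38.6% and 22.4%. Among stem-like Xist cells (59 and 198), Hlf was 176 CPM in Id2+/+ and 109 in Id2-deleted, a ratio of 0.618, and among Y-linked cells (83 and 78) it was 175 and 120, a ratio of 0.683. The Hlf intervals left out 1 in both (0.477 to 0.807, and 0.507 to 0.917). For Meis1 the ratios were 0.839 (0.687 to 1.03) and 0.768 (an interval that left out 1), and for Erg 0.753 (0.530 to 1.09) and 0.746 (0.525 to 1.06), so both Erg intervals and that of Meis1 in Xist cells held 1. Mllt3 was 0.731 and 0.873, Mecom 0.750 and 0.935, and Hoxa9 0.668 and 0.950. Runx1 was 1.02 among Xist cells and 0.769 among Y-linked cells. Hoxb5 and Gfi1 had under 20 UMIs in each subset. Hoxb5 was 1.82 among Xist cells (2 and 16 UMIs) and 0.704 among Y-linked cells (9 and 8). Gfi1 was 1.25 (2 and 11) and 0.0879 (9 and 1). Xist cells were 13.4% of the HSC-like cells in Id2+/+ and 7.59% in Id2-deleted, below their shares of stem-like cells. In both libraries the contrast of the HSC-like with the whole stem-like class thus moved with Xist. The part of these shares in the differences was not tested.

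Known partners and relatives of the members were measured beside them. Of 41 such genes, in lists chosen with earlier results known, 37 had enough UMIs in stem-like cells; 4 of these (10.8%) were at least 1.5-fold lower in Id2-deleted, a share below the 13.3% of all genes, and none was higher, against 4.87%. Their median log2 ratio was -0.19. Those whose interval left out 1 were Pbx2, a TALE cofactor of HOX proteins (0.600, 0.402 to 0.901), Hoxa5 (0.605, 0.389 to 0.948) and the ETS gene Ets1 (0.230, 0.0910 to 0.539; 18 and 9 UMIs). The fourth was Hoxb3 (0.498, 0.210 to 1.19), named after its value was seen. The other factors of the stem cell heptad, Gata2 (0.803), Tal1 (0.851), Lyl1 (0.827), Lmo2 (0.814) and Fli1 (0.877), were all below 1 and none passed the fold; for Gata2, Lyl1 and Lmo2 the interval left out 1, as it did for Gfi1b (0.710), which was named after its value was seen. None of 8 cofactors and paralogs of RUNX1 and GFI1, of 4 PAR bZIP and PRDM relatives, or of 7 partners of MLLT3 passed the fold.

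Between classes, 4 of 33 relatives (12.1%) were at least 1.5-fold above stem-like cells in platelet-biased-like cells of both libraries, against 4.14% of all genes, and 8 (24.2%) were below, against 12.6%. Among those higher were Fli1 (2.08 and 2.05), an ETS factor of megakaryocytes, Runx3 (2.21 and 1.54) and Gfi1b. Hoxa5, Hoxa7, Hoxa10 and Hoxb4 were among the 8 that were lower, while 1 of 8 HOX and TALE relatives with enough UMIs was higher. The relatives named in this comparison were chosen after their values were seen. In erythroid-like cells 23 of 33 (69.7%) were lower, against 34.2% of all genes, and 3 (9.09%) were higher, against 14.9%. In neutrophil-like cells 23 of 32 (71.9%) were lower, against 36.7%, and none was higher, against 7.74%.

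Over the 8 profiles of 4 classes in 2 libraries, the genes whose log2 level was most like each member, among 4306 or 4307 genes of at least 50 CPM in 1 or more profiles, had Pearson correlations of 0.965 to 0.997. These profiles share libraries and class boundaries, so the values are descriptions. For Hlf they were Ypel3 (0.993), Serpinf1 (0.993) and Ptpra (0.991), and for Mecom they were Il2rg (0.993), Hlf (0.986) and Hcfc1r1 (0.985). Meis1 was nearest to Pear1 (0.995), Cuedc1 (0.995) and Apoe (0.994), Hoxa9 to Adss (0.990), Rbpms (0.987) and Vgll4 (0.986), and among those nearest to Hoxb5 were Ubqln2 (0.969) and Pim1 (0.965). Gfi1 was nearest to Mgst2 (0.997), BC035044 (0.995) and Kctd20 (0.995), Erg to Pdrg1 (0.994), Foxp1 (0.992) and Snx10 (0.992), Runx1 to Lat (0.986), Pttg1ip (0.983) and Nrgn (0.980), and Mllt3 to Bcl11a (0.985), Tsc22d1 (0.985) and Eef2 (0.983).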

How the data were processed

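Single-cell RNA-seq (10x, 3' tags) was analysed from 2 libraries, 1 per genotype. The authors deposited unnormalised UMI counts for 27998 genes and 737280 barcodes per library (8612217 UMIs for Id2+/+ and 17140713 for Id2-deleted). Per the labels, 383 and 686 cells were analysed, and the submitters' processing notes name Cell Ranger 2.2.0 and the mm10 build.

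Barcodes were called as cells above 10% of the 99th percentile of UMIs over the 1000 deepest barcodes, giving 349 and 632 cells. Cells with under 10% mitochondrial UMIs were kept (333 and 625). Their counts, scaled to 10000 per cell and log transformed, were clustered (scanpy 1.11.5, 2000 variable genes, 20 components, 15 neighbours, Leiden resolution 1) without the members. Clusters were named from marker lists that left the members out. Clusters that no list named were counted as stem-like, apart from 1 cycling cluster with platelet markers. The classes were taken from this clustering of all cells, and a cycling cluster with platelet markers was kept unnamed; both choices were made after the clusters were seen. Scrublet marked 2 and 1 cells as doublets; they were kept. Counts were summed per class and library and divided by the class total (CPM). Exact Poisson, conditional and Clopper-Pearson 95% intervals cover counting error only. A ratio of at least 1.5-fold in either direction with at least 20 UMIs in the pair of sums was called. Genotypes had 1 library each, and no test was run on them or on the classes. The shares of cells with a UMI were taken after each cell was thinned to 6200 UMIs, the 10th percentile rounded down to a multiple of 100. Interval and call code was tested on simulated data.

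Named genes were the members, Id2, up to 4 genes per list of partners that passed the fold with an interval leaving out 1 in stem-like cells, and the 3 genes most like each member among those of at least 50 CPM in 1 or more profiles; some of the genes this rule names are not reported here. The relatives named beyond this rule were chosen after their values were seen, apart from the factors of the stem cell heptad, which are named as a whole list. The members, the lists and the alternatives were chosen with earlier results of these data known. The alternatives included TMM scaling (edgeR 4.0.16) and DESeq2 1.42.0 size factors, from which no test was taken. Gene positions are from RefSeq on GRCm38.p6.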

Additional observations from a re-analysis of the deposited data

Results flagged for a closer look

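One member, Mllt3, moved in opposite directions between the libraries in a pair of classes, each with a counting interval that left out 1. Its ratio of Id2-deleted over Id2+/+ was 0.770 in stem-like cells (136 CPM in Id2+/+ and 105 in Id2-deleted) and 1.26 in erythroid-like cells (80.0 and 101 CPM). The difference between these ratios was not tested, since each genotype has 1 library. Within the stem-like class the ratio was 1.08 in HSC-like and 1.17 in activated HSC-like cells, with intervals that held 1. HSC-like cells were 157 of 215 stem-like cells in Id2+/+ and 79 of 348 in Id2-deleted. Erythroid-like cells also came from partly separate clusters in the libraries. The part of either mix in the ratios was not tested. The haemoglobin share of UMIs in erythroid-like cells was 5.86% in Id2+/+ and 2.27% in Id2-deleted. With haemoglobin and mitochondrial genes left out of the totals together, the erythroid-like ratio was 1.21, and it ran from 1.17 to 1.39 over 19 alternative settings.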

How the results depend on the processing

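No paired analysis was possible between the genotypes because each had 1 library, and none was run between the classes. Over 19 alternative settings, the counts of members at least 1.5-fold higher than stem-like cells in both libraries (0, 0 and 1 in platelet-biased-like, erythroid-like and neutrophil-like cells) and at least 1.5-fold lower in erythroid-like and neutrophil-like cells stayed within 1.5 times, as did that of members higher in Id2-deleted stem-like cells (0). The 6 lower in platelet-biased-like cells became 3 with Y-linked cells only. The 3 members lower in Id2-deleted stem-like cells became 1 with the cell number from the labels, with barcodes of at least 1000 UMIs and 500 genes, with a mitochondrial limit of 5% and with Xist cells only, and 0 with Y-linked cells only; it was 2 in 9 further settings, TMM and DESeq2 scaling among them, 3 in 4 and 4 in 1. In platelet-biased-like cells, 1 higher and 0 lower became 0 and 3 with at least 1000 UMIs, 0 and 4 with the 5% limit and without the cells marked by Scrublet, 4 and 1 with retained cells clustered again (resolutions 0.5, 0.8 and 1.2, which left 3 Id2+/+ cells), 0 and 2 when scaled within library, 0 and 1 with Y-linked cells only and with the unnamed platelet-marked cluster added, and 0 higher with Xist cells only. In erythroid-like cells, 1 higher became 0 with Xist or Y-linked cells only, and 2 lower became 1 with TMM, with the empty-droplet profile subtracted and with Y-linked cells only, and 0 with Xist cells only. In neutrophil-like cells, 1 lower became 0 with at least 1000 UMIs, with equal weight per cell and with Xist cells only, where 1 was higher. The Hoxa9 ratio between libraries in platelet-biased-like cells (1.79) turned to 0.633 with at least 1000 UMIs, 0.548 with the 5% limit, 0.938 with members kept in clustering, 0.577, 0.584 and 0.573 when clustered again at 0.5, 0.8 and 1.2, 0.549 when scaled within library, 0.550 without the Scrublet-marked cells and 0.707 with the unnamed cluster added. The Runx1 ratio of platelet-biased-like to stem-like cells in Id2+/+ (1.54) turned to 0.399, 0.402 and 0.399 at 0.5, 0.8 and 1.2. Fewer members can be counted in the subsets by sex because fewer cells remain; the other causes were not tested. The second clustering at 0.8, the HSC-like clusters alone, the omission of the Dntt and Vpreb3 clusters and the added cluster were chosen after seeing the data. Depth limits Hoxb5 and Gfi1 most, with 25 and 17 UMIs in Id2+/+ stem-like cells.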
